A study of Mus musculus with 6 samples.

Results

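Fibroblast growth factor (FGF) ligands, receptors and feedback genes were measured in single-cell RNA sequencing data of the mouse bladder mucosa. The set was a list of 10 genes, matched in the count tables by their Ensembl identifiers: the ligands Fgf2, Fgf7 and Fgf10, the receptors Fgfr1, Fgfr2 and Fgfr3, the ligand carrier Fgfbp1, and the Sprouty genes Spry1, Spry2 and Spry4. Of these, 8 were among the 14335 genes listed in all 6 tables once mitochondrial and ribosomal genes were left out. Fgf10 and Fgfbp1 were not listed in all 6 tables.

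FGF ligands are secreted proteins that bind receptor tyrosine kinases at the cell surface together with heparan sulfate, and the activated receptor signals through the Ras and MAP kinase relay. Fgf7 (keratinocyte growth factor) and Fgf10 are classically made by stromal cells and act on epithelial cells that carry a splice form of Fgfr2, which makes them a textbook case of signalling from stroma to epithelium, and Fgf7 is known as a growth factor for urothelial cells. Sprouty proteins are induced by receptor tyrosine kinase signalling and dampen it, and FGFR3 is the FGF receptor best known in the urothelium, where activating mutations are common in bladder tumours.

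All mice were wild type C57BL/6 animals, 8 weeks old, and the bladder mucosa was peeled from the muscle and dissociated. The healthy group received no injury. The acute group was collected 48 h after cyclophosphamide (CPP), a drug whose metabolites injure the urothelium. The chronic group was collected on day 11 of a course of 4 rounds of CPP. The study places this harvest 48 h after the last injection, with a lower dose per injection than in the acute group. Each group was represented by 2 libraries. The study calls the libraries of a group biological replicates and says that they were handled in batches. Which libraries shared a batch, and how many mice went into each, is not given in the sources used here, so the batch entered no fit and p-values measure the spread between libraries. The tables held 54604109 to 111985678 unique molecular identifiers (UMIs, each counting 1 captured mRNA molecule by its 3' end) with median depths of 5530 to 9138 UMIs a cell. Cells used numbered 7709, 8777, 6421, 12026, 10127 and 5040 in healthy replicates 1 and 2, acute replicates 1 and 2 and chronic replicates 1 and 2, an order kept for every list of 6 values below. Levels are given as CPM, which are counts scaled to a common total of UMIs. The UMIs were summed over the cells of a class in a library. They were scaled by TMM, a method that corrects for differences in composition. The totals leave out mitochondrial and ribosomal genes and genes not listed in all 6 tables, so CPM are not shares of all UMIs.

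Cell classes were rebuilt by clustering, with all FGF pathway genes kept out of it, and named from markers: fibroblast-like and myofibroblast-like stromal cells with 3 and 2 subtypes, and basal-like, intermediate-like and superficial-like urothelial cells, called by the short names below. Such rebuilt names may differ from those of the study. The 8 mesenchymal markers summed to 35142 to 55686 CPM in mesenchymal cells and to 218 to 923 CPM in urothelial cells. The 11 urothelial markers summed to 15870 to 23645 CPM in urothelial cells and to 939 to 5177 CPM in mesenchymal cells, where they were highest in chronic replicate 1. Mesenchymal cells made up 23.4%, 17.7%, 6.56%, 33.1%, 10.3% and 2.22% of the cells, so chronic replicate 2 gave 28 fibroblasts and 83 myofibroblasts against 1338 and 2599 in acute replicate 2. In acute replicate 2, 79.8% of the fibroblasts were of the Inmt/Sct/Ass1 subtype, against 15.4% to 36.2% in the other 5 libraries. Between 0.673% and 2.28% of the barcodes of the smaller library were shared by any pair of libraries.

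The ligands Fgf2 and Fgf7 and the receptor Fgfr1 were stromal, Fgfr3 was urothelial, and Fgfr2 was present in both compartments. In the comparison of mesenchymal with urothelial cells within each library (edgeR quasi-likelihood test with the library as a block, Benjamini-Hochberg adjustment over all genes, threshold 0.05), 7 of the 8 members tested passed, 5 higher and 2 lower in mesenchymal cells. Of all genes tested, 70.2% passed, 32.7% higher and 37.6% lower, so a share this high was common in this comparison. The heat map of mean levels by class shows both blocks.

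**Figure D1:**
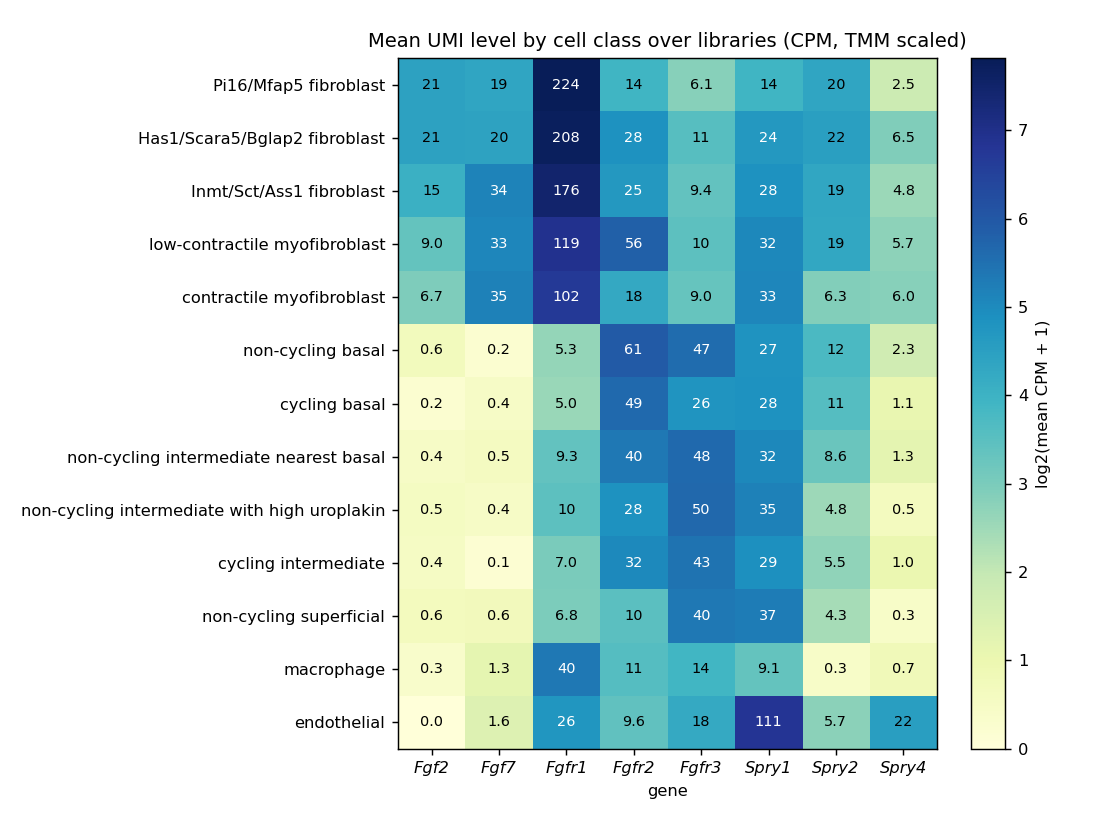
Mean level of the 8 members (columns) in 13 cell classes (rows) over the libraries with at least 20 cells of the class, printed in CPM and coloured by log2(mean CPM + 1). Fgf2, Fgf7 and Fgfr1 are high in the 5 stromal rows and low in the urothelial rows, Fgfr3 shows the reverse, Fgfr2 falls from basal (61) to superficial (10) cells, and Spry1 has its highest mean in endothelial cells (111).

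Fgf7 (chromosome 2, 126034658 to 126091185, plus strand, GRCm38) lay at 22.2, 30.7, 25.6, 28.5, 26.9 and 26.1 CPM in mesenchymal cells and at 0.373, 0.329, 0.171, 0.775, 0.643 and 0.169 CPM in urothelial cells. The compartments did not overlap, and the stromal level varied little between libraries (26.7 ± 2.84 CPM, SD, n = 6). The log2 difference was 6.03 (SE 0.29, edgeR adjusted p = 3.7e-08), a 65.5-fold higher level in mesenchymal cells. Of 891 Fgf7 UMIs in all kept cells, 82.5% came from mesenchymal cells, which were 17.8% of the cells, and 8.75% from urothelial cells. Clusters with mixed mesenchymal markers (1115 cells, 2.23% of the cells) held 62 of the UMIs, or 6.96%, and entered no comparison.

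Free RNA in a droplet can give UMIs of a gene to cells that do not express it. For each 1000 UMIs of the 5 stromal genes Dcn, Col1a1, Col1a2, Col3a1 and Sparc, there were 0.603 Fgf7 UMIs in mesenchymal cells and 0.880 in urothelial cells, and the ratio was higher in urothelial cells in 5 of 6 libraries. The part of free RNA in the urothelial Fgf7 UMIs was not tested. The same ratio was 0.304 and 1.03 for Fgf2 and 3.15 and 17.1 for Fgfr1, both higher in urothelial cells.

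Fgf2, a ligand that acts broadly on mesenchymal cells and leaves cells without a signal peptide, was found at 11.2, 19.3, 15.8, 12.3, 17.4 and 13.0 CPM in mesenchymal cells and at 0.361 to 0.613 CPM in urothelial cells. Its log2 difference was 4.93 (SE 0.24, edgeR adjusted p = 3.4e-08). The 3' end of Fgf2 (chromosome 3, 37348346 to 37410108, plus strand) overlaps the gene Nudt6 on the other strand.

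Within the stroma, Fgf2 and Fgf7 were found in both cell types, with Fgf2 lower in myofibroblasts. Of the 7 members tested between myofibroblasts and fibroblasts of the same libraries, 3 passed, all lower in myofibroblasts: Fgf2, Fgfr1 and Spry2. Over all genes, 20.9% passed, 10.9% higher and 9.99% lower. Without acute replicate 2, which held most of the myofibroblasts, all 6 members tested passed, with Fgf7, Fgfr2 and Spry1 added as higher in myofibroblasts, where 16.9% of all genes passed in the same fit (9.68% higher, 7.21% lower).

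Fgf2 had the lower value in myofibroblasts in 6 of 6 libraries. It stood at 7.69, 18.0, 3.49, 10.0, 0 and 11.5 CPM there and at 16.3, 20.1, 23.8, 21.0, 18.8 and 16.0 CPM in fibroblasts. The value of 0 came from the 72 myofibroblasts of chronic replicate 1, where 3 UMIs would be 17.5 CPM and the exact 95% limit of a count of 0 was 21.5 CPM, so the order in that library was not detectable at its depth. In chronic replicate 2 the values rested on 3 UMIs in 83 myofibroblasts and 2 UMIs in 28 fibroblasts. Their exact 95% intervals overlapped (2.45 to 34.8 and 2.40 to 71.7 CPM before TMM scaling), as did those of healthy replicate 2 (9.24 to 29.7 and 14.8 to 25.5 CPM). The myofibroblast value of acute replicate 1 rested on 2 UMIs. The log2 difference was -1.08 (SE 0.24, edgeR adjusted p = 0.0026). Among the subtypes, Pi16/Mfap5 and Has1/Scara5/Bglap2 fibroblasts had 20.7 ± 2.55 and 20.7 ± 5.74 CPM (SD, n = 5) and contractile myofibroblasts 7.08, 16.8, 7.35, 9.10, 0 and 0 CPM. In the chronic libraries 3 UMIs would be 45.3 and 30.5 CPM in these 24 and 31 cells, so both counts of 0 lie under what their depth resolves. The remaining subtypes overlapped. Inmt/Sct/Ass1 fibroblasts had 11.0, 21.2, 13.3, 21.2 and 10.7 CPM in the 5 libraries with at least 20 of them. Low-contractile myofibroblasts had 8.12, 17.5, 0, 10.6, 0 and 18.1 CPM, and 3 UMIs would be 9.33 and 28.5 CPM where the count was 0.

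Fgf7 lay at 27.9, 52.7, 31.4, 28.7, 38.1 and 30.7 CPM in myofibroblasts and at 16.6, 25.5, 22.6, 30.1, 26.5 and 16.0 CPM in fibroblasts. It had the higher value in myofibroblasts in 5 libraries and was slightly lower in acute replicate 2, while the fibroblast value of chronic replicate 2 rested on 2 UMIs in 28 cells (exact 95% interval 2.40 to 71.7 CPM before TMM scaling). The log2 difference of 0.47 (SE 0.18, 95% interval 0.10 to 0.84) did not pass the test over all genes (edgeR adjusted p = 0.065). Over the 14 alternatives run, the adjusted p ranged from 0.0059 to 0.24, and it was lowest without acute replicate 2, where the difference was 0.78. The subtypes Pi16/Mfap5 and Has1/Scara5/Bglap2 had the lowest levels, 19.2 ± 6.20 and 20.4 ± 5.55 CPM (SD, n = 5). Inmt/Sct/Ass1 fibroblasts, at 34.5 ± 11.0 CPM (SD, n = 5), stood with low-contractile (32.9 ± 6.79) and contractile myofibroblasts (35.4 ± 17.8, SD, n = 6), and these 3 did not differ beyond their spread.

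The share of cells with an Fgf7 UMI depended on the depth to which cells were thinned. After each cell was thinned to 3000 UMIs, an Fgf7 UMI was found in 5.22%, 10.7%, 7.43%, 5.49%, 9.09% and 7.23% of myofibroblasts and in 3.26%, 4.54%, 4.62%, 4.46%, 6.10% and 3.57% of fibroblasts. The share was higher in myofibroblasts in 6 of 6 libraries (7.53% ± 2.11 against 4.42% ± 0.994, SD, exact paired permutation test, two-sided, p = 0.03125, the smallest possible). Thinned to 2000 UMIs it was higher in 4 of 6 (p = 0.3125, exact permutation test). Unthinned means were 10.0% and 6.22%. Thinning to 3000 UMIs left out 431 of 1246 fibroblasts and 81 of 305 myofibroblasts of healthy replicate 2, 621 of 1338 and 84 of 2599 of acute replicate 2, and none of the other replicate of each group. It left out 707 of 953 fibroblasts and 50 of 72 myofibroblasts of chronic replicate 1, whose shallow cells had medians of 2576 and 2704 UMIs. Its myofibroblast share rested on 2 of 22 cells (95% Clopper-Pearson interval 1.12% to 29.2%, counting error only). In chronic replicate 2 the fibroblast share rested on 1 of 28 cells (95% interval 0.0904% to 18.35%) and the myofibroblast share on 6 of 83. The smallest possible p needs the same order in 6 of 6 libraries, these included. In urothelial cells the thinned share was 0.0464% to 0.151%, at median depths of 5979 to 11000 UMIs.

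**Figure D2:**
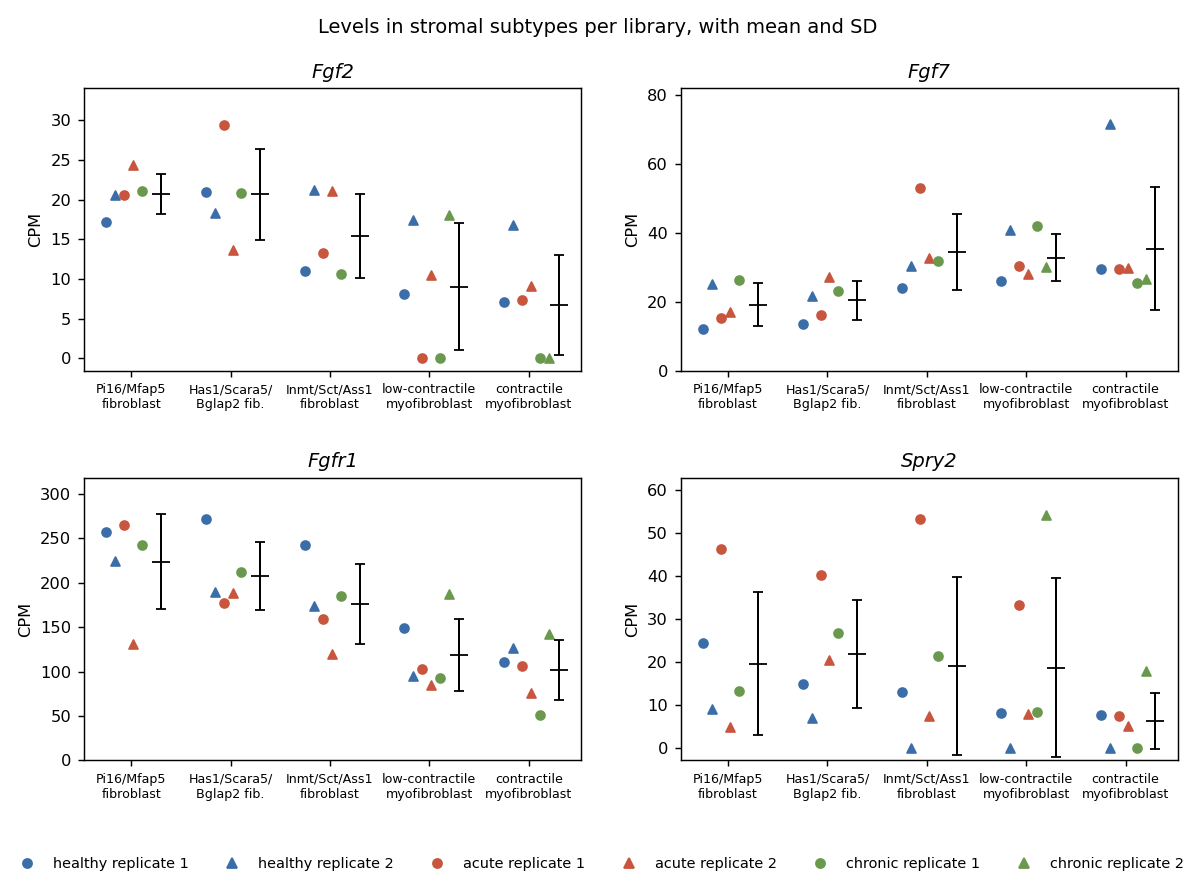
Level in CPM (vertical axes) of Fgf2, Fgf7, Fgfr1 and Spry2 in 5 stromal subtypes (horizontal axes), 1 point per library with at least 20 cells, with the mean and SD as black bars. Fgfr1 steps down from fibroblasts to myofibroblasts, while Fgf2 values of Inmt/Sct/Ass1 fibroblasts and low-contractile myofibroblasts overlap. Fgf7 is lowest in Pi16/Mfap5 (mean 19.2) and Has1/Scara5/Bglap2 (mean 20.4) fibroblasts, and Spry2 spreads widely between libraries.

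Of the receptors, Fgfr1 (chromosome 8, 25513654 to 25575718, plus strand), whose mesenchymal splice form binds Fgf2, stood at 185, 177, 172, 91.1, 205 and 151 CPM in mesenchymal cells and at 12.5, 8.05, 6.58, 7.60, 7.63 and 7.15 CPM in urothelial cells. The log2 difference was 4.34 (SE 0.18, edgeR adjusted p = 1.8e-08). Fibroblasts had 259, 199, 218, 129, 219 and 80.1 CPM and myofibroblasts 132, 109, 110, 81.4, 81.6 and 180 CPM, lower in 5 of 6 libraries (log2 -0.79, SE 0.18, edgeR adjusted p = 0.0075). The exception was chronic replicate 2, whose 28 fibroblasts summed to 5786 CPM of urothelial markers and 2848 CPM of fibroblast markers, against 898 to 5082 and 5967 to 7650 CPM in the fibroblasts of the other libraries. The part of these cells in that value was not tested. The level descended from Pi16/Mfap5 (224 ± 54.0) over Has1/Scara5/Bglap2 (208 ± 38.2) and Inmt/Sct/Ass1 fibroblasts (176 ± 44.8, SD, n = 5) to low-contractile (119 ± 40.5) and contractile myofibroblasts (102 ± 33.5, SD, n = 6), with neighbours within 1 SD of each other except at the step from fibroblasts to myofibroblasts. Macrophages held 40.2 ± 16.9 CPM (SD, n = 6).

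Fgfr2 (chromosome 7, 130162451 to 133123350, minus strand) is the receptor whose epithelial splice form binds Fgf7 and Fgf10. Counts of the 3' end do not separate its splice forms, so stromal and urothelial Fgfr2 UMIs may belong to different receptors. It lay at 29.6, 21.0, 32.9, 24.7, 23.9 and 67.8 CPM in mesenchymal cells and at 46.4, 32.5, 25.2, 29.4, 20.3 and 25.0 CPM in urothelial cells. The groups overlapped, and the log2 difference of 0.03 (SE 0.24, edgeR adjusted p = 0.92) did not pass. For each 1000 UMIs of the urothelial genes Upk1a, Upk1b, Upk2, Upk3a and Krt18 there were 16.2 Fgfr2 UMIs in mesenchymal cells and 2.01 in urothelial cells, and the part of free RNA in the stromal values was not tested. The same ratio for Fgfr3 was 4.64 and 3.03. Low-contractile myofibroblasts had 34.6, 38.8, 54.6, 23.5, 67.3 and 114.6 CPM and contractile ones 31.9, 12.6, 25.7, 21.6, 0 and 17.8 CPM. The values lay close together in healthy replicate 1 and acute replicate 2, the libraries with the most of these cells. The 2 highest low-contractile values came from the 48 and 52 cells of the chronic libraries, with 8 and 19 UMIs, and in the 24 contractile cells of chronic replicate 1 a count of 0 has an exact 95% limit of 55.8 CPM, so the order there was not detectable. Between all myofibroblasts and fibroblasts the log2 difference was 0.25 (SE 0.20, edgeR adjusted p = 0.43). The leading genes of 1 of the 3 low-contractile sub-clusters included Cxcl10, an interferon-induced chemokine, Cnn1, a contractile gene, Bdnf, Fmod and, further down, Socs1 and Pim1.

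Fgfr3 (chromosome 5, 33721674 to 33737068, plus strand) lay at 8.69, 11.9, 5.26, 5.70, 5.64 and 31.3 CPM in mesenchymal cells and at 64.1, 40.3, 45.1, 39.4, 35.4 and 46.9 CPM in urothelial cells. The compartments did not overlap, and the log2 difference was -2.36 (SE 0.27, edgeR adjusted p = 2.95e-05). Urothelial cells gave 91.9% of its 9012 UMIs.

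Across the urothelial layers the 3 receptors followed different courses. Of the 6 members tested between non-cycling intermediate and basal cells, 4 passed, with Fgfr1 higher and Fgfr2, Spry2 and Spry4 lower in intermediate cells, and 45.3% of all genes passed (22.0% higher, 23.3% lower). From intermediate to superficial cells, 3 of 5 members tested passed, all receptors and all lower, while 53.8% of all genes passed (25.1% higher, 28.7% lower). The plot by layer splits the intermediate cells into those nearest basal cells and those with high uroplakin.

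Fgfr2 descended at every layer in every library. Basal cells had 101, 54.7, 51.7, 64.4, 42.9 and 50.4 CPM, intermediate cells nearest basal 65.8, 37.7, 38.7, 39.5, 27.0 and 33.0, intermediate cells with high uroplakin 35.9, 26.5, 27.7, 28.5, 19.4 and 26.9, and superficial cells 18.7, 6.95, 8.06, 11.2, 8.64 and 8.53 CPM. Intermediate cells as a whole were 2.08-fold below basal cells (log2 -1.06, SE 0.07, edgeR adjusted p = 4.8e-11). Superficial cells were 2.82-fold below intermediate cells (log2 -1.50, SE 0.11, edgeR adjusted p = 1.0e-09). Both differences held in 6 of 6 libraries.

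Fgfr3 was nearly level. Basal cells had 71.1, 43.1, 53.6, 38.3, 32.0 and 41.8 CPM, intermediate cells 65.4, 41.2, 54.3, 43.1, 39.6 and 54.2 CPM, and superficial cells 59.7, 33.7, 40.9, 43.7, 26.5 and 36.4 CPM. Intermediate and basal cells differed by 0.04 on the log2 scale (SE 0.07, 95% interval -0.12 to 0.19, edgeR adjusted p = 0.73) with 4 libraries higher and 2 lower. The sign of this small value turned with scaling to library totals (-0.02) and with clusters made without integration (-0.12). Superficial cells were 1.22-fold below intermediate cells (log2 -0.29, SE 0.08, edgeR adjusted p = 0.00689, lower in 5 of 6 libraries). Without chronic replicate 2 the difference was -0.21 and no longer passed (edgeR adjusted p = 0.066).

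Fgfr1 was low in the urothelium and peaked in the middle. It had 8.03, 2.98, 5.04, 6.91, 4.81 and 3.75 CPM in basal cells, 14.2, 9.56, 9.41, 9.37, 8.74 and 8.41 CPM in intermediate cells and 9.08, 9.08, 4.24, 6.45, 5.69 and 6.23 CPM in superficial cells. The rise from basal to intermediate cells (log2 0.92, SE 0.16, edgeR adjusted p = 6.7e-05) and the fall to superficial cells (log2 -0.56, SE 0.14, edgeR adjusted p = 0.0016) held in 6 of 6 libraries. The mesenchymal markers summed to 242 to 998 CPM in basal cells (median 407), 223 to 935 in intermediate cells nearest basal (median 381), 206 to 867 in those with high uroplakin (median 389) and 222 to 913 in superficial cells (median 488). The part of stromal RNA in the Fgfr1 values was not tested. With clusters made without integration the first of these differences was 0.53 and did not pass (edgeR adjusted p = 0.051).

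**Figure D3:**
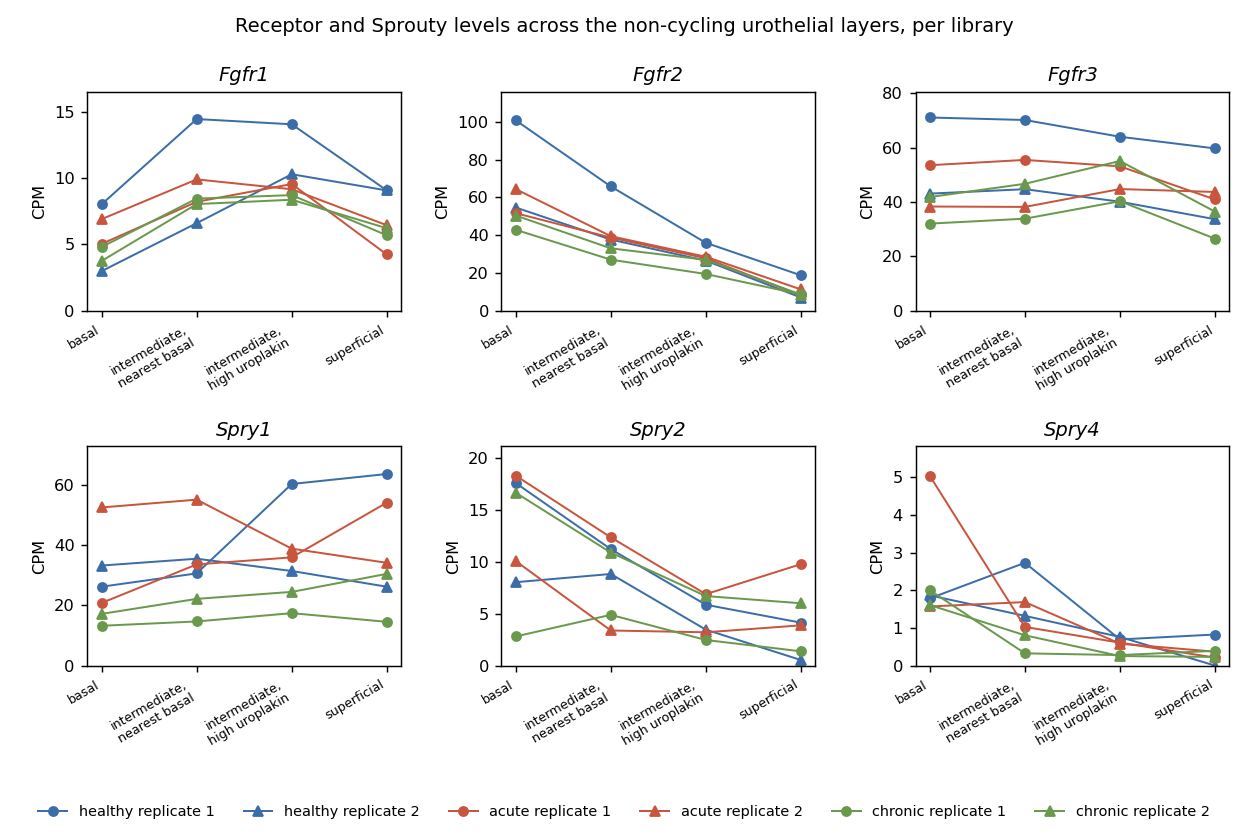
Level in CPM (vertical axes) of 3 receptors and 3 Sprouty genes in basal, intermediate and superficial non-cycling urothelial cells (horizontal axes), 1 line per library, coloured by group. All 6 Fgfr2 lines descend from left to right, Fgfr3 lines run nearly flat, Fgfr1 lines peak in intermediate cells, and the Spry1 lines of the chronic libraries lie lowest in the first 3 classes.

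The Sprouty genes, inhibitors that restrain signalling downstream of the receptors, fell into different patterns. Spry2 (chromosome 14, 105891947 to 105896819, minus strand) had 17.6, 8.02, 18.3, 10.1, 2.80 and 16.6 CPM in basal cells and 6.82, 4.59, 8.07, 3.25, 2.83 and 7.49 CPM in intermediate cells. It was lower in intermediate cells in 5 libraries and about equal in chronic replicate 1 (log2 -1.17, SE 0.16, edgeR adjusted p = 1.25e-06). Superficial cells had 4.28 ± 3.33 CPM (SD, n = 6), and the further step of -0.27 (SE 0.22, edgeR adjusted p = 0.30) did not pass. In the stroma, fibroblasts had 18.3, 5.83, 46.4, 8.40, 20.7 and 64.1 CPM and myofibroblasts 7.98, 0, 22.7, 6.90, 5.44 and 42.2 CPM, lower in 6 of 6 libraries (log2 -0.93, SE 0.24, edgeR adjusted p = 0.0079). Not every order was resolved. The 0 of healthy replicate 2 had an exact 95% limit of 4.93 CPM, against 3.26 to 9.25 CPM in its fibroblasts (before TMM scaling). The myofibroblast value of chronic replicate 1 rested on 1 UMI in 72 cells. Those of chronic replicate 2 rested on 8 UMIs in 28 fibroblasts and 11 UMIs in 83 myofibroblasts. The libraries differed far more than the classes, with acute replicate 1 and chronic replicate 2 high in both stromal classes. Without healthy replicate 1 the stromal difference was -0.79 and did not pass (edgeR adjusted p = 0.094).

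Spry4 was sparse in the urothelium. Basal cells had 1.79, 1.87, 5.04, 1.57, 2.00 and 1.61 CPM, resting on 37 UMIs, and intermediate cells 1.06, 0.882, 0.702, 0.867, 0.288 and 0.353 CPM, resting on 78 UMIs. The level was lower in intermediate cells in 6 of 6 libraries (log2 -1.57, SE 0.36, edgeR adjusted p = 0.000975). Mesenchymal cells had 5.31 ± 3.63 CPM against 0.816 ± 0.280 CPM in urothelial cells (SD, n = 6, log2 2.46, SE 0.44, edgeR adjusted p = 0.000474). The mesenchymal values were 9.43, 1.14, 9.86, 2.34, 3.91 and 5.21 CPM. That of healthy replicate 2 rested on 4 UMIs and lay close to the 1.02 CPM of its urothelial cells, and that of chronic replicate 2 rested on 2 UMIs. Endothelial cells held 61.1, 8.06, 34.6, 0 and 7.40 CPM in the 5 libraries with at least 20 of them, and 11.6% of all Spry4 UMIs came from these cells, which were 0.964% of the cells. The values of 8.06 and 7.40 CPM rested on 2 UMIs and 1 UMI. The 0 came from 27 cells of chronic replicate 1, where 3 UMIs would be 41.7 CPM.

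Spry1 (chromosome 3, 37639947 to 37644598, plus strand) was found in urothelial, stromal and endothelial cells. Basal cells had 27.2 ± 14.2 CPM, intermediate cells 34.7 ± 13.6 CPM and superficial cells 37.2 ± 18.3 CPM (SD, n = 6). Neither step passed (log2 0.27 and 0.11, edgeR adjusted p = 0.28 and 0.45). Mesenchymal cells had 35.1, 17.9, 28.9, 19.5, 16.9 and 31.3 CPM and urothelial cells 51.8, 31.8, 36.0, 41.0, 16.0 and 23.3 CPM. That log2 difference of -0.44 (SE 0.18) lay at the threshold (edgeR adjusted p = 0.0495), was lower in 4 of 6 libraries and lost its call under 8 of 14 alternatives. Endothelial cells had the highest mean, with 138, 96.7, 206, 91.6 and 22.2 CPM in the 5 libraries with at least 20 of them. They were the highest class in 4 of these, and in chronic replicate 2 the value rested on 3 UMIs and lay below the 31.3 CPM of mesenchymal cells.

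Cells called cycling were compared with the other cells of the same layer. A cell was called from a score of S phase or G2/M genes over 2 median absolute deviations above the median, and cycling basal cells were a sub-cluster in which most cells were so called. The 4 cycling markers Mki67, Top2a, Birc5 and Hmgb2 summed to 1216 to 3001 CPM in cycling basal cells and to 105 to 253 CPM in non-cycling ones. In basal cells, 1 of 4 members tested passed, against 24.4% of all genes (12.0% higher, 12.4% lower). Fgfr3 was lower in cycling basal cells in 6 of 6 libraries, at 36.4, 19.6, 36.0, 30.5, 13.6 and 21.6 CPM against 71.1, 43.1, 53.6, 38.3, 32.0 and 41.8 CPM (log2 -0.61, SE 0.14, edgeR adjusted p = 0.000923). Cycling basal cells numbered 86, 30, 729, 248, 145 and 123. Fgfr2, at 92.5, 34.3, 43.7, 47.0, 35.7 and 40.4 CPM in cycling basal cells, also lay lower in 6 of 6 libraries, but its log2 difference of -0.19 (SE 0.12, edgeR adjusted p = 0.30) did not pass.

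Intermediate cells were called from the score alone, and their numbers were 87, 162, 186, 148, 438 and 114. Their cycling markers summed to 119 to 288 CPM against 80.4 to 146 CPM in the other intermediate cells, so cycling is not read from this call. None of 5 members tested passed in edgeR or in DESeq2, none had an unadjusted p under 0.05, and 3.39% of all genes passed (1.85% higher, 1.54% lower). The largest difference was in Fgfr1 (log2 -0.26, SE 0.27, edgeR adjusted p = 0.76), which had 7.01 ± 2.25 CPM in called and 9.95 ± 2.13 CPM in other intermediate cells (SD, n = 6). A separate, mostly cycling sub-cluster carried superficial markers and had under 20 cells in each healthy library. In the acute and chronic libraries it had 9.97, 12.6, 7.83 and 6.47 CPM of Fgfr2 and 34.8, 28.3, 29.2 and 35.0 CPM of Fgfr3. When it took the place of the cycling intermediate cells, 3 of 5 members tested passed, all lower than in intermediate cells: Fgfr1, Fgfr2 and Fgfr3, with log2 differences of -0.90, -1.47 and -0.49. In that fit 49.0% of all genes passed, 23.1% higher and 25.9% lower. Non-cycling superficial cells of the same 4 libraries had 8.06, 11.2, 8.64 and 8.53 CPM of Fgfr2 and 40.9, 43.7, 26.5 and 36.4 CPM of Fgfr3, and the same 3 receptors were lower in them than in intermediate cells, so this comparison does not separate cycling from layer. This alternative was added after the clusters were seen.

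Other genes of the pathway were taken from 4 lists of 61 genes, 50 of them listed in all tables. The feedback and target list, which holds MAP kinase phosphatases, Spred inhibitors and transcription factors induced by the pathway, had 14 genes tested in both comparisons between layers. Between intermediate and basal cells 9 were lower and 2 higher, where 23.3% of all genes tested were lower and 22.0% higher, with a median log2 difference of -0.52 against -0.01 over all genes tested. Among those lower were Dusp6, an ERK phosphatase (44.1 ± 20.1 against 112 ± 46.5 CPM, log2 -1.42, SE 0.09), Etv5, an ETS factor (11.5 ± 4.32 against 22.7 ± 8.34 CPM, log2 -1.02, SE 0.10), and Fosl1 (log2 -1.41, SE 0.06, SD and n = 6 throughout, edgeR adjusted p of 1.7e-08 or lower). Spred3 and Dusp4 were higher. Between superficial and intermediate cells, 9 of 14 were lower and 1 higher, where 28.7% of all genes were lower and 25.1% higher (median log2 -0.72, all genes -0.02), with Etv5 at 4.31 ± 1.49 CPM and Dusp6 at 23.5 ± 13.5 CPM in superficial cells. These genes also answer to other receptors, such as the EGF receptor.

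The other lists were more mixed. Of 17 signal relay genes, 5 were lower and 2 higher in intermediate than in basal cells, with a median of -0.03, where 23.3% of all genes were lower and 22.0% higher. Of the co-receptors and heparan sulfate proteoglycans, Gpc6 (log2 -2.03, SE 0.23), Sdc3 and Gpc4 were lower and Flrt3 higher, of 12 tested against the same shares of all genes. Fgf1, a ligand of all FGF receptors, was a urothelial gene that was lower in intermediate than in basal cells (14.6 ± 6.50 against 28.4 ± 13.7 CPM, SD, n = 6, log2 -0.998, SE 0.09, edgeR adjusted p = 2.4e-09). Fgf9 was higher in superficial than in intermediate cells, at 2.22 ± 1.14 against 0.182 ± 0.106 CPM (log2 3.57, SE 0.41, edgeR adjusted p = 3.9e-07), and reached 6.64 ± 2.89 CPM in mesenchymal cells.

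Between myofibroblasts and fibroblasts, 3 of 13 co-receptor genes were higher and 4 lower in myofibroblasts (median -0.09, all genes -0.01), where 10.9% of all genes were higher and 9.99% lower. The glypicans split. Gpc1 was higher (44.6 ± 16.0 against 7.14 ± 5.99 CPM, log2 2.67, SE 0.25, edgeR adjusted p = 2.6e-07) and Gpc3 lower (2.29 ± 2.83 against 36.9 ± 19.7 CPM, SD, n = 6, log2 -3.79, SE 0.26, edgeR adjusted p = 8.0e-10). Flrt2, a membrane protein that associates with FGF receptors, was also lower (log2 -2.34, SE 0.24). Of 11 feedback and target genes only Ccnd1, a G1 cyclin, passed, at 120 ± 61.6 against 31.2 ± 15.4 CPM (log2 2.17, SE 0.23, edgeR adjusted p = 2.1e-05), and of 16 relay genes only Braf.

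Injury was compared with healthy libraries in 5 classes, 2 libraries against 2, in edgeR fits over all 6 libraries. None of the members tested passed in any of these 10 comparisons, in edgeR or in DESeq2. The share of all genes that passed was 0.0825% (acute) and 0.101% (chronic) in fibroblasts, 0.0127% and 0.0% in myofibroblasts, and 0.0% in basal, intermediate and superficial cells, so the design found few changes of any gene. Over the 10 comparisons, 3 member values had an unadjusted p under 0.05 in edgeR. These were Fgfr2 in chronic myofibroblasts (1 of 5 members tested) and Spry1 and Spry4 in chronic intermediate cells (2 of 7). Of all genes tested, 449 of 7855 and 669 of 13227 had such a p in the same comparisons, so values at this level were not particular to the members. The 95% intervals were wide with 2 libraries a group, so small differences were not detectable. Differences beyond 1 on the log2 scale, given below, did not pass either, so a member without a call is not shown to be unchanged.

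**Figure D4:**
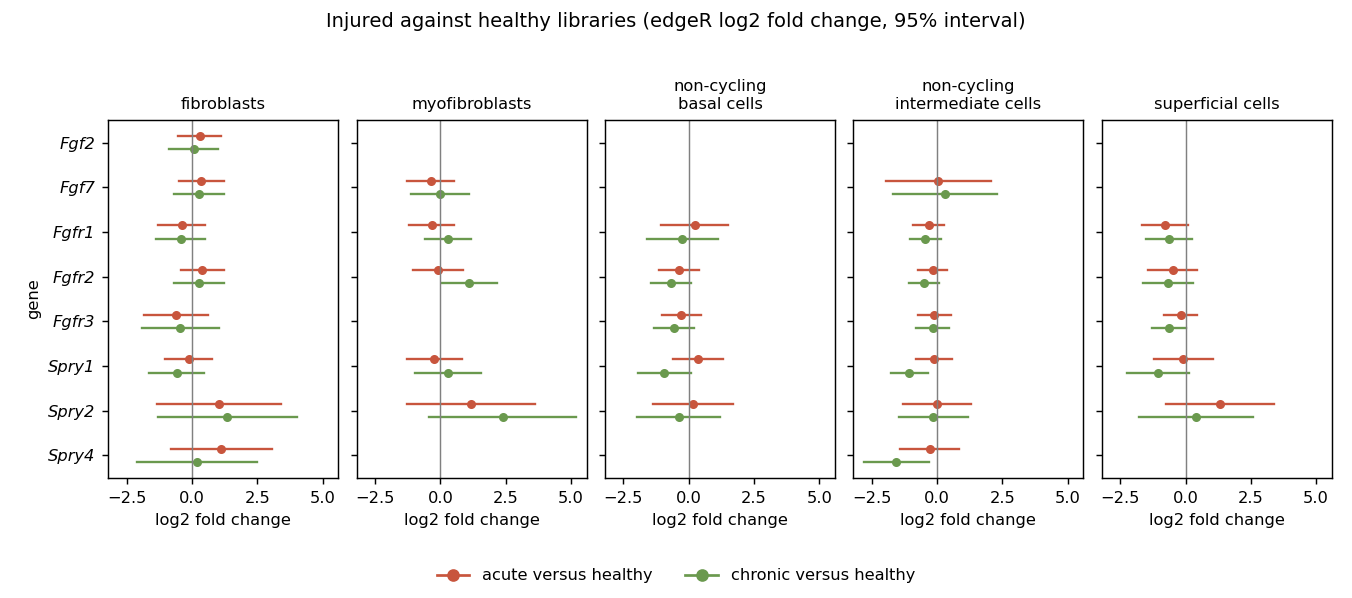
Log2 fold change of injured over healthy libraries (horizontal axes, points) with 95% intervals (lines) for the members tested (vertical axis) in 5 cell classes, acute in red and chronic in green. Most intervals cross 0, and the exceptions at this unadjusted level are Fgfr2 in chronic myofibroblasts and Spry1 and Spry4 in chronic intermediate cells.

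Fgf7 in fibroblasts had 16.6 and 25.5 CPM in healthy, 22.6 and 30.1 CPM in acute and 26.5 and 16.0 CPM in chronic libraries. The groups overlapped, with log2 differences of 0.36 (SE 0.39, 95% interval -0.48 to 1.21, acute) and 0.27 (SE 0.44, -0.68 to 1.22, chronic, edgeR adjusted p = 1 for both). In myofibroblasts it had 27.9 and 52.7 CPM in healthy, 31.4 and 28.7 CPM in acute and 38.1 and 30.7 CPM in chronic libraries, with differences of -0.37 (SE 0.40, -1.26 to 0.53) and -0.03 (SE 0.49, -1.14 to 1.09). The acute difference in myofibroblasts turned to 0.12 without healthy replicate 2. Acute replicate 2 gave 92.3% and 76.8% of the cells of 2 of the 3 low-contractile sub-clusters, and with these left out the differences were -0.36 (acute) and -0.43 (chronic). Acute and chronic myofibroblasts differed by -0.34 (SE 0.50, edgeR adjusted p = 0.94). The acute effect was 0.81 lower on the log2 scale in myofibroblasts than in fibroblasts (SE 0.35, unadjusted p = 0.031 and adjusted p = 1 in the edgeR interaction test), and none of 8 members passed that test, nor did any gene (0.0%). In acute replicate 2, 79.8% of the fibroblasts were of the Inmt/Sct/Ass1 subtype, whose mean Fgf7 was above that of the other fibroblast subtypes. The part of this mix in the difference was not tested.

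The share of stromal cells with an Fgf7 UMI at 3000 UMIs was 4.27% and 5.87% in healthy, 5.64% and 5.26% in acute and 6.34% and 6.31% in chronic libraries. Acute minus healthy was 0.377 percentage points (exact permutation p = 1) and chronic minus healthy 1.25 points (exact permutation p = 0.3333, the smallest that 2 against 2 libraries allow, two-sided). Thinned to 2000 UMIs they were -0.302 points (exact permutation p = 0.6667) and 1.82 points (exact permutation p = 0.3333). Without thinning they were 1.32 points (exact permutation p = 0.3333) and 0.269 points (exact permutation p = 1). The acute mean was below the chronic mean at both thinned depths and above it without thinning. These shares pool fibroblasts and myofibroblasts, whose mix differed between libraries. Taken apart, acute minus healthy was 0.639 points in fibroblasts and -1.51 points in myofibroblasts at 3000 UMIs (exact permutation p = 0.6667 and 1), 0.660 and -2.20 points at 2000 UMIs (p = 0.6667 and 0.3333, exact permutation) and 1.14 and -0.270 points without thinning (p = 0.3333 and 1, exact permutation). Chronic minus healthy was 0.935 and 0.194 points at 3000 UMIs (p = 0.6667 and 1, exact permutation), 3.37 and 2.103 points at 2000 UMIs (p = 0.3333 and 0.6667, exact permutation) and 0.771 and -0.621 points without thinning (p = 0.6667 and 0.3333, exact permutation).

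Over all kept cells, Fgf7 followed the share of mesenchymal cells in the library. It was 4.22, 3.26, 1.34, 7.54, 2.61 and 0.611 CPM before TMM scaling, and the 6 libraries stand in the same order by their mesenchymal share. Within mesenchymal cells the values lay between 22.2 and 30.7 CPM with no such order. The acute libraries were the highest and the second lowest of the 6 over all cells. In such totals fewer stromal cells and less RNA per cell cannot be told apart.

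**Figure D5:**
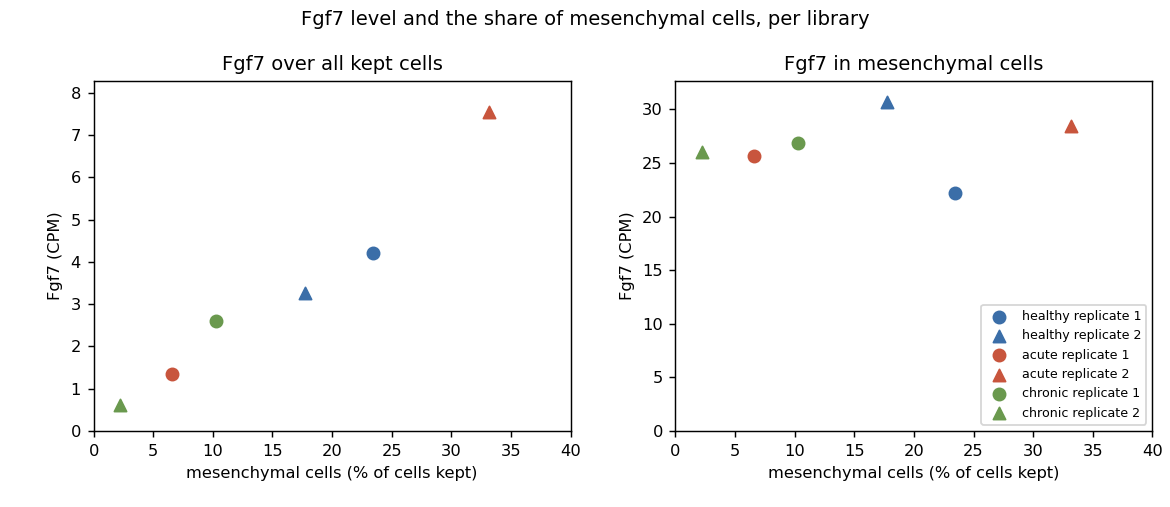
Fgf7 in CPM (vertical axes) over all kept cells, before TMM scaling (left), and in mesenchymal cells, TMM scaled (right), against the percentage of kept cells that were mesenchymal (horizontal axes), 1 point per library. The left values climb from 0.611 at 2.22% to 7.54 at 33.1% mesenchymal cells, while the right values stay between 22.2 and 30.7 CPM.

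Among the receptors, Fgfr2 in myofibroblasts was 33.6 and 31.9 CPM in healthy, 43.6 and 22.8 CPM in acute and 43.5 and 80.6 CPM in chronic libraries. The chronic libraries lay above the healthy ones (1 of 5 members tested, where 11.6% of all genes did so, while 25.7% lay below and no member did), with a log2 difference of 1.11 (SE 0.47, 95% interval 0.05 to 2.17, edgeR adjusted p = 0.85). These libraries held 72 and 83 myofibroblasts, with urothelial marker sums of 6416 and 2122 CPM against 912 and 3077 CPM in healthy myofibroblasts. The part of these markers' source in the value was not tested. In fibroblasts, Fgf2 lay higher and Fgfr3 lower in both acute libraries than in both healthy ones (1 of 8 members each way, against 14.3% and 16.7% of all genes), and in chronic libraries Spry2 lay higher and Spry1 lower (14.7% and 25.0%). The values of chronic replicate 2 there came from 28 cells, with 8 Spry2 UMIs and 1 Spry1 UMI. Before TMM scaling Spry1 overlapped, at 15.7 CPM in healthy replicate 2 and 16.0 CPM in chronic replicate 1.

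In the urothelium, members tested lay lower rather than higher wherever chronic and healthy libraries did not overlap. In chronic intermediate cells this was so for 4 of 7 members tested, Fgfr1, Fgfr2, Spry1 and Spry4 (18.2% of all genes), and in chronic basal cells for 3 of 5, Fgfr2, Fgfr3 and Spry1 (18.7% of all genes). Some of these gaps were narrow. Before TMM scaling, Fgfr3 in basal cells overlapped, at 42.5 CPM in healthy replicate 2 and 43.8 CPM in chronic replicate 2. Fgfr2 in intermediate cells was 28.9 CPM in healthy replicate 2 and 28.3 CPM in chronic replicate 2. Chronic superficial cells had 1 of 5 lower, Fgfr1 (14.2%). Of all genes, 11.6%, 15.3% and 19.8% lay higher in chronic basal, intermediate and superficial cells, so in superficial cells more genes lay higher than lower. In acute libraries the counts were 2 of 7 in intermediate cells, Fgfr1 and Spry4 (14.1%), 1 of 5 in superficial cells, Fgfr1 (13.7%), and 0 of 5 in basal cells (15.0%). Both gaps in acute intermediate cells were narrow. Fgfr1 was 9.56 CPM in healthy replicate 2 against 9.41 and 9.37 CPM in the acute libraries. Spry4 was 0.882 CPM in healthy replicate 2 (19 UMIs) against 0.867 CPM in acute replicate 2 (16 UMIs). The comparisons share the healthy libraries, of which replicate 1 was the highest of the 6 in Fgfr2 and Fgfr3 in every layer, so that these counts are not independent of each other.

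Spry1 gave the lowest unadjusted p. Intermediate cells had 55.3 and 32.4 CPM in healthy, 35.9 and 43.0 CPM in acute and 17.1 and 24.3 CPM in chronic libraries, with chronic below all others (log2 -1.07, SE 0.30, 95% interval -1.77 to -0.37, unadjusted p = 0.0085 and adjusted p = 0.92 in edgeR). Basal cells had 26.2 and 33.2, 20.8 and 52.5, and 13.2 and 17.2 CPM in the same order (log2 -0.93, SE 0.44, edgeR adjusted p = 0.99). In superficial cells, with 63.6 and 26.2, 54.1 and 34.1, and 14.5 and 30.4 CPM, the groups overlapped (log2 -1.07, SE 0.50, edgeR adjusted p = 0.85). Spry4 in intermediate cells had 1.06 and 0.882 CPM in healthy and 0.288 and 0.353 CPM in chronic libraries (log2 -1.57, SE 0.53, unadjusted p = 0.020 and adjusted p = 0.95 in edgeR). None of the 33 to 45 other pathway genes tested in each of these 10 comparisons passed in edgeR or DESeq2, and 19 of their 410 values had an unadjusted p under 0.05 in edgeR and 13 in DESeq2.

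Fgfr2 and Fgfr3 in the layers varied widely between libraries of a group. Fgfr2 in basal cells was 101 and 54.7 CPM in healthy, 51.7 and 64.4 CPM in acute and 42.9 and 50.4 CPM in chronic libraries (chronic log2 -0.68, SE 0.34, edgeR adjusted p = 0.99). Fgfr3 in intermediate cells was 65.4 and 41.2, 54.3 and 43.1, and 39.6 and 54.2 CPM, with overlap in both comparisons (log2 -0.12, SE 0.27, and -0.17, SE 0.27). 

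As a description of pattern, the genes most like each member were taken over 77 sums of a class in a library (15 classes, 10759 genes compared, Pearson correlation of log2(CPM + 1), where sums of 1 library share its depth and free RNA). For Fgf7 these were Prdm6 (0.948), Adam23 (0.947) and Wnt2 (0.944). Fgfr3 was most like Tnfrsf21 (0.874), Shh (0.853) and Enpp5 (0.826), and Fgfr2 like Mia3 (0.665) and Zfp618 (0.664). Between members, Fgf7 had 0.845 with Fgfr1, -0.051 with Fgfr2 and -0.667 with Fgfr3.

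Fgf10, the closest relative of Fgf7, was listed only in the table of chronic replicate 1, with 2 UMIs in 2 barcodes. Fgfbp1, which releases bound FGFs from the matrix, was listed in 4 tables, with 15 UMIs in healthy replicate 2 and 2 UMIs each in acute replicate 2 and both chronic libraries. In 2 tables (the first replicates of the healthy and acute groups) the rarest listed genes were found in 8 and 6 cells, so absence there allows a few UMIs, and neither gene was tested.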

How the data were processed

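Single cells of the bladder mucosa were profiled with a 10x 3' kit, and the deposited tables hold UMI counts per gene and cell that the authors made with Cell Ranger on mm10. One table ended in 1 incomplete line, which was left out. Cells with more than 500 genes and under 10% mitochondrial UMIs were kept, and predicted doublets were removed at 0.8% per 1000 cells, since the automatic threshold marked almost none. The libraries were integrated in Seurat 5.3.0 and clustered with scanpy 1.11.5 (resolution 0.8) without the FGF pathway genes, and clusters were named from markers by a rule settled after they were seen. The members and lists were chosen with earlier results of these data known. UMIs were summed per class and library (at least 20 cells) and tested with edgeR 4.0.16 (quasi-likelihood, TMM, Benjamini-Hochberg adjustment, threshold 0.05). The library was a block between classes, and all 6 libraries entered 1 fit per class between groups. The procedure was tested on simulated data. DESeq2 1.42.0, other filters, scaling and clustering, and leaving out each library were alternatives. The text names all members, some of the pathway genes that passed, picked with their values known and otherwise given as counts, and the 3 genes most like each of Fgf7, Fgfr2 and Fgfr3, of which 1 is not reported here.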

Additional observations from a re-analysis of the deposited data

How the results depend on the processing

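Of 251 values of called members under an alternative, 240 kept their direction and side of the threshold and 11 lost the call, 8 of them for Spry1 between mesenchymal and urothelial cells. Fgf7 in myofibroblasts against fibroblasts passed with stricter cell filters (log2 0.51) and with doublets kept (0.51, 0.505 before rounding), and ranged from 0.35 to 0.78 when 1 library was left out, as did the number of members called, from 2 to 6. Fgfr3 between intermediate and basal cells turned to -0.017 with library totals and -0.12 without integration, and ranged from -0.0055 to 0.0867 with 1 library left out. Fgfr3 between superficial and intermediate cells ranged from -0.33 to -0.21. Without integration, 3 members were called in cycling basal and 2 in cycling intermediate cells. The numbers tested and the shares of all genes called without integration are not given here. Those counts are therefore not read as results about the members. With the cycling luminal sub-cluster, added after seeing the data, 3 members were called, all lower, where 49.0% of all genes passed. The causes of these changes in the calls were not tested. The acute difference of Fgf7 in myofibroblasts ranged from -0.82 to 0.12. Over all genes, calls between stromal classes numbered 1950 (1188 to 2531), in cycling basal cells 2283 (1449 to 2936), in cycling intermediate cells 392 (167 to 5916), and in the 12 injury comparisons 0 to 11 (0 to 124). Library numbers were not shown to pair samples. Deviations of equal numbers correlated at 0.29 to 0.51 between healthy and acute libraries. They correlated at -0.54 to -0.13 between healthy and chronic and at -0.37 to -0.15 between acute and chronic libraries. With a replicate block in edgeR, 0 of 65 member values in 11 comparisons were called (4 with an unadjusted p under 0.05), with acute Fgf7 differences of 0.35 in fibroblasts and -0.39 in myofibroblasts. The chronic numbers were also exchanged, a pairing added after seeing the data and run in the 6 comparisons with chronic libraries. There 0 of 35 were called (12 with an unadjusted p under 0.05 in edgeR). The shares of all genes with such a p in the block fits are not given here. Neither count is therefore read as a result about the members. Basal cells of the groups without integration, and cycling intermediate cells at the stricter threshold, were not run.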

Other observations

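A urothelial sub-cluster that also carried stromal genes, with Cxcl14, Car3 and Col1a1 among its leading genes, stayed outside the layers and entered no comparison. It held 34.0, 38.2, 62.8, 39.1, 22.4 and 42.6 CPM of Spry2, from 380 UMIs, which were 19.8% of all Spry2 UMIs in 5.50% of the cells. Spry2 in the 3 libraries with at least 20 NK/T cells was 45.8, 5.64 and 68.5 CPM. Mural cells, present in both acute libraries alone in sufficient number, had 33.9 and 160 CPM of Fgfr1 and 20.3 and 25.2 CPM of Spry4.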
